A study of Bos taurus with 2 samples.

Results

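The genes described here code for the enzyme complexes of the mitochondrial respiratory chain, for ATP synthase and for some of the factors that assemble them. They were chosen by name alone. Taken were all array probes for genes whose symbol, as printed on the array or as RefSeq now gives it, begins with NDUF, UQCR, ATP5 or COX and a number, or is SDHA, SDHB, SDHC, SDHD, CYC1 or CYCS. This gave 107 genes with 242 probes, of 17373 genes and 43653 probes on the array. The tissue was mammary gland of adult female Chinese Holstein cows in late lactation. Total RNA of 1 sample labelled mastitis and 1 sample labelled normal was each hybridised to 1 array in a single colour (Cy3). The design gives 3 cows with and 3 cows without mastitis, and the cow or cows behind each array are not named. The study's methods state that antibiotics were given to the diseased cows alone, so that disease and antibiotic cannot be told apart. No cow of either group had received recombinant growth hormone.

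In the inner mitochondrial membrane, complex I (NADH dehydrogenase) and complex II (succinate dehydrogenase) pass electrons to ubiquinone, complex III (cytochrome bc1) passes them to cytochrome c, and complex IV (cytochrome c oxidase) passes them to oxygen. The proton gradient that complexes I, III and IV build drives complex V, the ATP synthase. Most subunits are coded in the nucleus and a small group in mitochondrial DNA, and several complex IV subunits exist in forms made mainly in muscle, lung or testis. The lactating mammary gland uses ATP heavily for milk protein, fat and lactose synthesis.

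With 1 array per condition none of the differences below could be checked on replicates, and p-values are not given. The SDs below are taken over different probes of a gene and are technical, and the number of arrays limits the precision. Each array held 45220 spots. A probe counted as measured where its net signal, that is the spot signal minus the mean of the negative controls, was well above background, that is past a limit set from the negative controls, on both arrays. This was so for 27878 probes of 12473 genes. Each array was divided by its own 75th percentile of net signal (210 for mastitis, 128 for normal), and the result is called the scaled signal. A log2 ratio is the scaled signal of the mastitis array over that of the normal array. The median of all measured genes was -0.15 on this scale, so a gene at -0.15 stood at the middle of the arrays, not lower than other genes. Scaled by the median, the same value was 0.0041, on the spike-in probes 0.094, and with no scaling 0.57. Without scaling 331 genes had a signal on the mastitis array at least 2-fold lower and 2525 one at least 2-fold higher, against 1137 and 287 after scaling to the 75th percentile. For that reason the lists are described by their distance from the median of all genes.

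Most respiratory chain and ATP synthase genes stood slightly lower on the mastitis array than the median gene of the array, and few stood far from it. Of the 107 genes, 104 were measured on both arrays. Their median log2 ratio was -0.31 (SD 0.34 over genes), at a distance of -0.16 from the median of all genes (SD 0.73 over genes). In 81 of the 104 (77.9%) the ratio lay below the median of all genes. Only NDUFS8, COX7C and COX8B were at least 2-fold lower, that is 3 of 104 or 2.88%, where the share of all measured genes was 9.12%. No gene of the set was at least 2-fold higher, where the share of all measured genes was 2.3%. At 1.5-fold, 18 genes (17.3%) were lower and 1 was higher, against 21.6% and 7.79% of all genes. The shares past either threshold were thus below those of all genes, while the median lay lower. Of the 18 genes, 8 were subunits of complex I, 7 of complex IV, 1 of complex III (UQCRB) and 1 of complex V (ATP5F1D), 0 were of complex II, and 1 was the assembly factor COX20.

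The size of that shift depended on the processing. Against the 2697 genes with scaled signals between the quartiles of the set (1.53 to 11.4), whose median was -0.088, the distance of the set was -0.22. With the normexp background correction, which adds an offset to all signals, the set and all genes had almost the same median, with a distance of -0.0013, and 52 of the 104 genes lay below the latter. With no filter on dim probes the distance was -0.0078. In a bulk tissue sample, fewer cells of a type and less of an RNA per cell cannot be told apart.

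**Figure D1:**
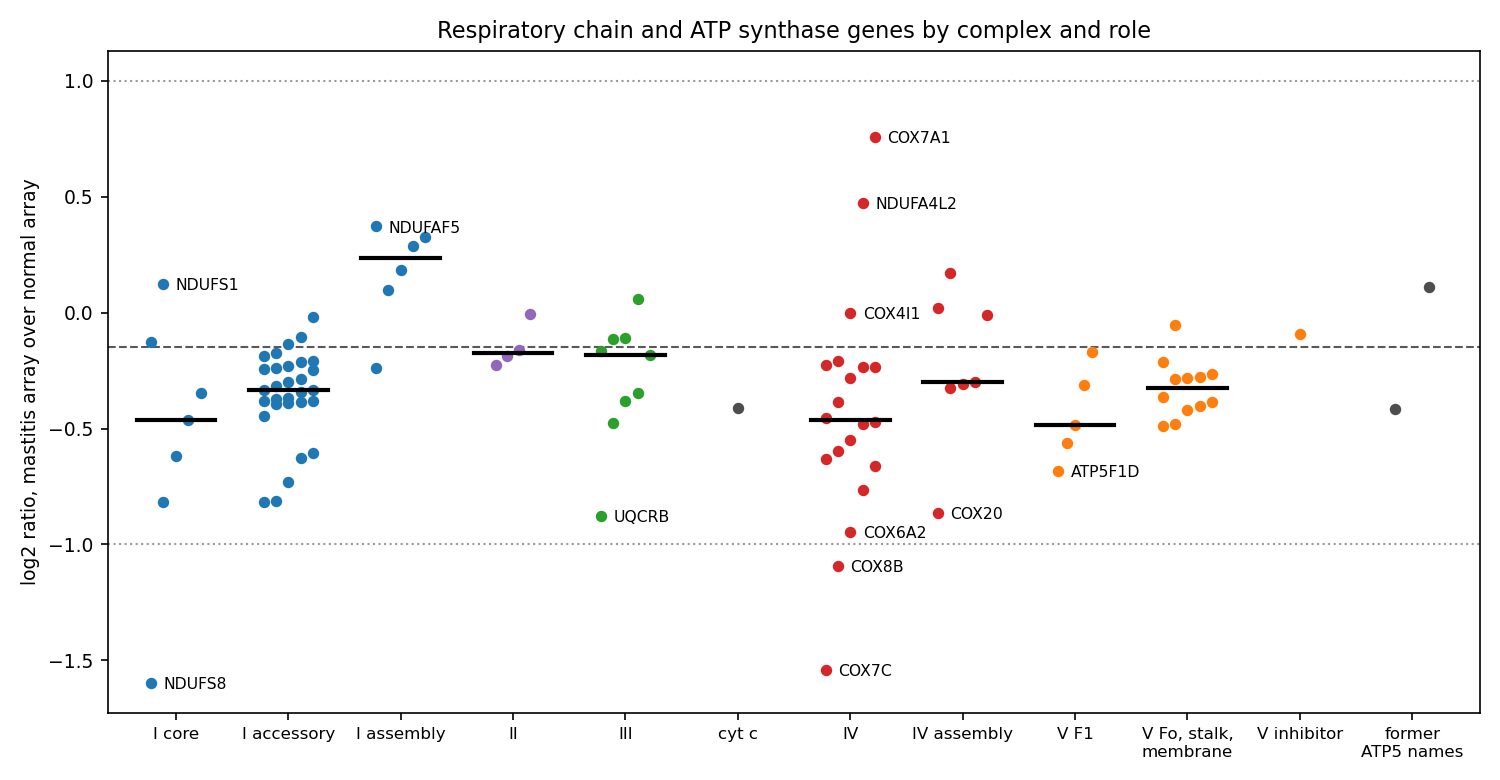
Log2 ratio (mastitis array over normal array, vertical axis) of each of the 104 measured genes, grouped by complex and role along the horizontal axis. Each point is 1 gene, black bars are group medians, the dashed line marks the all-gene median (-0.15) and the dotted lines mark 2-fold. Most points of complexes I, IV and V lie below the dashed line, the points of complex II lie close to it, and complex IV has the widest range (-1.54 to 0.76).

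Among the 5 complexes, complexes IV, V and I lay furthest below the median of all genes, and complexes II and III lay close to it. The median log2 ratio was -0.46 for the 20 measured subunits of complex IV, -0.37 for the 17 of complex V, -0.34 for the 37 of complex I, -0.18 for the 9 of complex III and -0.17 for the 4 of complex II. Counted from the median of all genes, these were -0.32, -0.22, -0.20, -0.035 and -0.028. The number of subunits below the median of all genes was 17 of 20 for complex IV, 16 of 17 for complex V, 32 of 37 for complex I, 6 of 9 for complex III and 3 of 4 for complex II. The highest and the lowest of these 5 medians were 0.29 apart on the log2 scale, and with 1 array per condition the order of the complexes has no test. Against genes of like signal to each complex, the distances were -0.36 for complex IV, -0.24 for complex I, -0.16 for complex V, -0.13 for complex II and -0.099 for complex III, so that complexes V and II were close to each other on that measure. With 4 and 9 genes, the medians of complexes II and III rest on few values. Complexes I, IV and V were below the median of all genes under all 15 settings of scaling, background, filter and probe choice, at -0.30 to -0.023 for complex I, -0.38 to -0.11 for complex IV and -0.32 to -0.014 for complex V. Complexes II and III were each above it under 2 of the 15. Scaling each array by a constant (median, spike-in probes, other percentile or none) moves all genes alike. Those settings among the 15 could therefore not change these distances.

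Complex I takes electrons from NADH through the core subunits of its arm in the matrix. The 7 nuclear-coded core subunits had a median of -0.46. NDUFS8, an iron-sulfur subunit on the path to ubiquinone, had the lowest ratio of the whole set, with scaled signals of 3.66 for mastitis and 11.1 for normal (log2 ratio -1.60, SD 1.56, 2 probes). Its probes did not give the same answer. One gave a net signal of 1753 for mastitis against 6944 for normal and a log2 ratio of -2.70, and the other had 337 and 289 and a log2 ratio of -0.49.

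The remaining core subunits spread from -0.81 to 0.12. NDUFV2, an iron-sulfur subunit of the module that binds NADH, had scaled signals of 8.01 for mastitis against 14.1 for normal, and its probes were close together (log2 ratio -0.81, SD 0.011, 2 probes). NDUFV1, which holds the flavin that takes electrons from NADH, had 1.49 and 2.06 (log2 ratio -0.46, SD 0.11, 2 probes). NDUFS7, the iron-sulfur subunit nearest ubiquinone, had 2.52 and 3.20 (log2 ratio -0.34, SD 0.045, 3 probes). NDUFS3 had 6.27 and 6.83 (log2 ratio -0.13, SD 0.065, 2 probes). NDUFS1, the largest iron-sulfur subunit, was the only subunit of complex I with a higher scaled signal on the mastitis array, 0.743 against 0.682 (log2 ratio 0.12, SD 0.067, 3 probes). Subunits of the same arm thus had different ratios, and NDUFV2 and NDUFS1 were further apart than the SD over the probes of either.

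The 30 accessory subunits, which surround the core and are needed for its assembly and stability, formed a narrow group. Their median was -0.33 (SD 0.20 over genes), and 27 of 30 were below the median of all genes. At this scaling 30 of 30 were below 0, as were 61.1% of all genes. The lowest were NDUFB7 of the membrane arm (scaled signals 5.76 for mastitis and 10.2 for normal, log2 ratio -0.82, 1 probe), NDUFA5 of the matrix arm (3.52 and 6.19, log2 ratio -0.81, SD 0.033, 2 probes) and NDUFA11 (8.78 and 14.6, log2 ratio -0.73, 1 probe). The highest was NDUFAB1, the mitochondrial acyl carrier protein that also serves fatty acid and lipoic acid synthesis, with 16.3 and 16.5 (log2 ratio -0.017, 1 probe). NDUFB8 (log2 ratio -0.14, 1 probe) and NDUFA6 (log2 ratio -0.11, SD 0.32, 2 probes) were next to it. NDUFA7 had probes on both sides of 0, at -0.89 with net signals of 1639 and 1849, and at 0.22 with net signals of 23 and 12.

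The complex I assembly factors with NDUF names, which are not part of the finished enzyme, mostly lay on the other side of the median of all genes from most of its subunits. Of 7 on the array 6 were measured, with a median of 0.23, which is 0.38 above the median of all genes, and 5 of the 6 were above 0. NDUFAF5, which modifies an arginine of NDUFS7, had scaled signals of 0.657 for mastitis and 0.508 for normal (log2 ratio 0.37, 1 probe). NDUFAF7, a methyltransferase, had 0.167 and 0.133 (log2 ratio 0.33), NDUFAF4 had 0.124 and 0.102 (log2 ratio 0.29), and NDUFAF6 had 0.342 and 0.301 (log2 ratio 0.18, SD 0.023, 2 probes). NDUFAF3, which works with NDUFAF4, was the only lower one, with 15.6 and 18.4 (log2 ratio -0.24, 1 probe). NDUFAF2 had probes on both sides of 0 (-0.48 and 0.67). NDUFAF1 exceeded the background limit only on the mastitis array, with net signals of 8 and 6, and no fold can be given. Most of these factors had low signals, with net signals of 26 and 13 for NDUFAF4 and 35 and 17 for NDUFAF7. The 4277 genes of like signal had a median of -0.14. The distance of these NDUF-named factors from all genes was 0.054 with the normexp correction and above 0 under all 15 settings, of which the constant scalings could not change it. Factors for complex I without NDUF names lay on both sides of the median of all genes. Their log2 ratios were -0.98 for FOXRED1, -0.45 for ACAD9, -0.11 for TMEM126B, -0.061 for ECSIT and 0.068 for TIMMDC1.

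Complex II also works in the citric acid cycle, and its 4 subunits differed little between the arrays. SDHA, the flavoprotein that oxidises succinate, had scaled signals of 1.48 for mastitis and 1.66 for normal (log2 ratio -0.16, SD 0.17, 4 probes). SDHB, the iron-sulfur subunit, had 1.48 and 1.68 (log2 ratio -0.19, 1 probe). The membrane anchors were SDHC with 1.42 and 1.66 (log2 ratio -0.23, SD 0.084, 3 probes) and SDHD with 2.40 and 2.41 (log2 ratio -0.0066, SD 0.0015, 2 probes). All 4 ratios lay within 0.14 of the median of all genes.

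In complex III the catalytic subunits were not alike. UQCRFS1, the Rieske iron-sulfur protein, had scaled signals of 3.60 for mastitis and 5.01 for normal (log2 ratio -0.48, SD 0.16, 3 probes). CYC1, cytochrome c1, had 5.72 and 6.41 (log2 ratio -0.16, SD 0.018, 3 probes). The paired core proteins differed, with 0.851 and 1.11 for UQCRC1 (log2 ratio -0.38, SD 0.062, 4 probes) and 1.65 and 1.588 for UQCRC2 (log2 ratio 0.057, SD 0.24, 4 probes). The positive sign of UQCRC2 rested on 1 probe with net signals of 105 and 48 and a ratio of 0.42. Its other, brighter probes gave -0.088, -0.087 and -0.011. UQCRB, a small subunit near the ubiquinone site, was the lowest at -0.88 (SD 0.70, 3 probes), but this rested on 1 probe with net signals of 24 and 47 and a ratio of -1.68. Its other probes gave -0.51 and -0.44. The small subunits UQCRQ, UQCR10, UQCRH and UQCR11 lay between -0.34 and -0.11. CYCS, cytochrome c, which carries electrons from complex III to complex IV, had 0.784 and 1.04 (log2 ratio -0.41, SD 0.079, 2 probes).

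Complex IV had the lowest median at this scaling and the widest spread (SD 0.50 over genes). Its median was not the lowest under quantile normalization, where the distances from all genes were -0.22 for complex I and -0.16 for complex IV, in the deposited table moved by 1 row (-0.26 and -0.18) or with accession names alone, where complex V was at -0.24 and complex IV at -0.15. Of its catalytic subunits, which mitochondrial DNA codes, COX2 and COX3 were on the array under names of the set and COX1 had no probe named so here. COX2, which takes electrons from cytochrome c, had scaled signals of 119 for mastitis and 202 for normal (log2 ratio -0.76, SD 0.093, 3 probes). COX3 had 139 and 203 (log2 ratio -0.55, SD 0.097, 3 probes). Under quantile normalization, which forces the bright ends of the arrays to be equal, these ratios became -0.12 and 0.11. The nuclear-coded COX5A had 10.03 and 13.9 (log2 ratio -0.47, 1 probe) and COX5B had 10.8 and 14.8 (log2 ratio -0.45, SD 0.065, 5 probes). COX7B had 9.82 and 15.2 (log2 ratio -0.63, SD 0.023, 2 probes). COX7C, a small membrane subunit, had a mean of -1.54 (SD 1.77, 3 probes) that rested on 1 probe with a net signal of 150 for mastitis against 1095 for normal and a log2 ratio of -3.58. Its other probes, with net signals of 3913 and 3468 and of 2626 and 2259, gave -0.54 and -0.50.

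**Figure D2:**
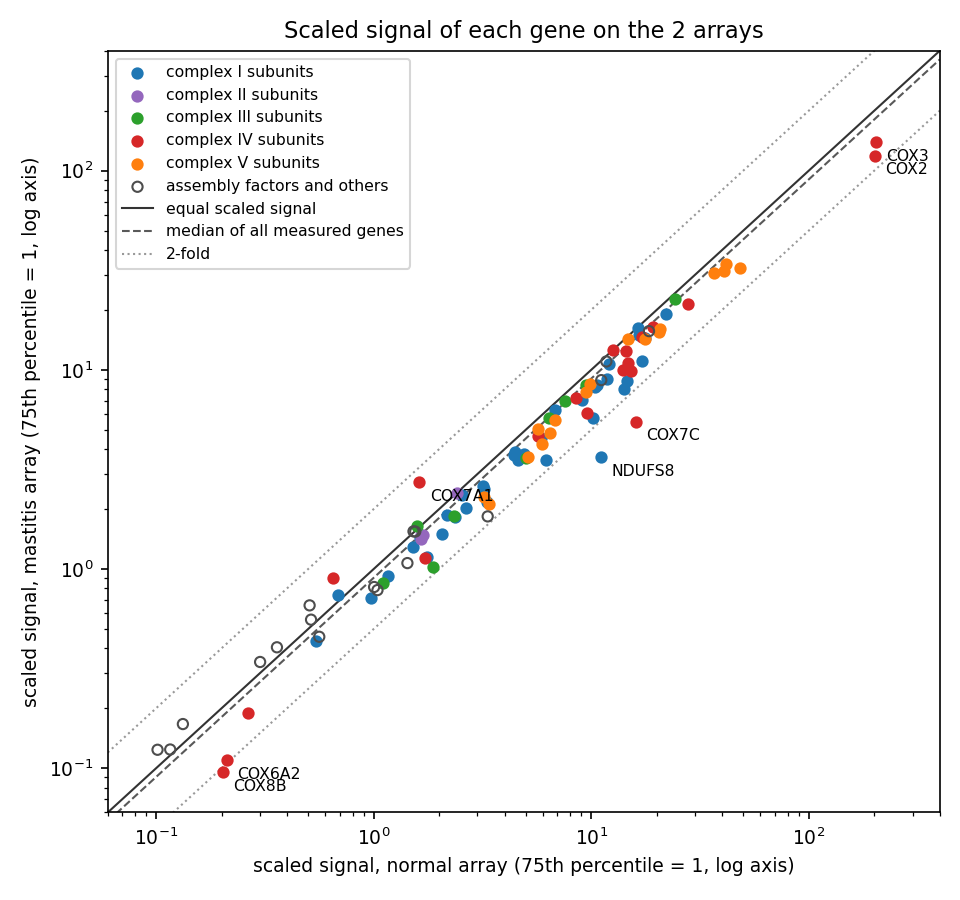
Scaled signal on the mastitis array (vertical, log axis) against the normal array (horizontal, log axis), with each array's 75th percentile set to 1. Each point is 1 of the 104 measured genes, coloured by complex, and open circles are assembly factors and other genes of the set; the solid line marks equal signals, the dashed line the median of all genes and the dotted lines 2-fold. Points of all 5 complexes follow a line slightly below equality over the whole range of signals, with NDUFS8, COX7C and COX8B beyond the lower 2-fold line and COX7A1 above equality.

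Genes for tissue forms of complex IV subunits gave the highest and some of the lowest of these ratios. COX7A1, the heart and muscle form of subunit VIIa, had the highest ratio of all 104 genes, with scaled signals of 2.74 for mastitis and 1.62 for normal (log2 ratio 0.76, SD 0.094). Both of its measured probes were higher on the mastitis array, with net signals of 711 and 466 against 245 and 176. The ratio ranged from 0.49 to 1.47 over the 16 alternative settings. The 1.47 was with no scaling, where the median of all genes was itself 0.57. The range was the same without the deposited table as labelled, whose rows are displaced. COX7A2, the widely made form of the same subunit, had 7.22 and 8.48 (log2 ratio -0.23, SD 0.065, 3 probes). NDUFA4L2, a relative of the complex IV subunit NDUFA4 that is known to be induced by low oxygen, had 0.900 and 0.648 (log2 ratio 0.47, 1 probe). Its ratio ranged from 0.30 to 1.19, where the highest value was again that with no scaling. NDUFA4 itself, which was long taken for a complex I subunit, had 6.07 and 9.60 (log2 ratio -0.66, SD 0.31, 4 probes).

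The other muscle forms stood at the opposite end. COX8B had scaled signals of 0.0952 for mastitis and 0.203 for normal (log2 ratio -1.09, 1 probe), and COX6A2 had 0.110 and 0.211 (log2 ratio -0.95, 1 probe). Both signals were close to background, with net signals of 20 and 26 for COX8B and 23 and 27 for COX6A2. COX8A and COX6A1, the widely made forms, had ratios of -0.21 (SD 0.025, 2 probes) and -0.22 (1 probe). COX4I2, the lung form, had net signals of 40 and 34 (log2 ratio -0.48, 1 probe), while COX4I1, the widely made form, had scaled signals of 12.6 on both arrays (log2 ratio -0.0014, SD 0.085, 4 probes). COX6B2, the testis form, had a ratio of -0.60 (SD 0.12, 2 probes) and COX6B1 one of -0.39 (SD 0.15, 3 probes). COX7B2, another testis form, was not well above background on either array.

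Markers of striated muscle were mostly too low to measure. Of 11 on the array, 4 were measured, with summed scaled signals of 3.14 for mastitis against 2.83 for normal. The myosin heavy chains MYH1 and MYH2 and the troponins TNNT1 and TNNC1 did not exceed the background limit on any array, and MYL1 and TNNT3 did so on the mastitis array alone. CKM counted as well above background on the normal array alone, with a highest net signal over its 4 probes of 170. On the mastitis array its highest net signal was 14, past the limit of 7.10, but the spot was marked as not found. The sums above leave CKM out. The slow myosin MYH7 had a log2 ratio of -0.79 and desmin (DES) one of 0.29. Of the luminal and secretory epithelial markers 14 of 16 were measured, 7 were at least 2-fold lower and 0 higher on the mastitis array, where 9.12% and 2.3% of all genes were, and their summed scaled signal was 133 there and 2297 on the normal array. Those 2-fold lower were the milk proteins PAEP, CSN2, CSN1S2, CSN1S1 and CSN3, with MUC1 and the transcription factor ELF5. The keratins were split, with log2 ratios of 0.36 for KRT8 (SD 0.67, 4 probes), 0.97 for KRT18 and -0.40 for KRT19. Of the 14 measured, 9 were below 0 and 5 above. LALBA, coding for the milk protein alpha-lactalbumin, was well above background on the normal array alone. Of the leukocyte markers 8 of 10 were measured, with a median of -0.18 and 4 of 8 below 0. Their summed scaled signals were 20.3 and 17.0, of which CSF1R, a macrophage receptor, made up 11.6 and 6.25, while CD14, CD2 and MS4A1 had log2 ratios of -0.77, -0.99 and -1.17. Of 4 measured adipocyte markers 3 were at least 2-fold lower (LPL at -2.00, LEP at -1.63 and CIDEC at -1.61). LEP and CIDEC had 1 probe each, with net signals for mastitis and normal of 9 and 17 for LEP, close to background, and 29 and 54 for CIDEC. FABP4, with scaled signals of 61.6 and 56.9, had a log2 ratio of 0.12. ADIPOQ, PLIN1 and PLIN4 were not measured on both arrays. Endothelial and myoepithelial markers, 5 measured of each, had medians of 0.31 and 0.21 with 4 of 5 above 0 in both. The 6 fibroblast markers were split, with a median of 0.16, 3 of 6 below 0, and a range from COL3A1 (-1.09) to DCN (0.76). Of the brown adipocyte markers CIDEA alone was measured (log2 ratio -3.66), and UCP1, ELOVL3 and PRDM16 did not exceed the background limit on any array. The part of these markers in the ratios above was not tested.

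**Figure D3:**
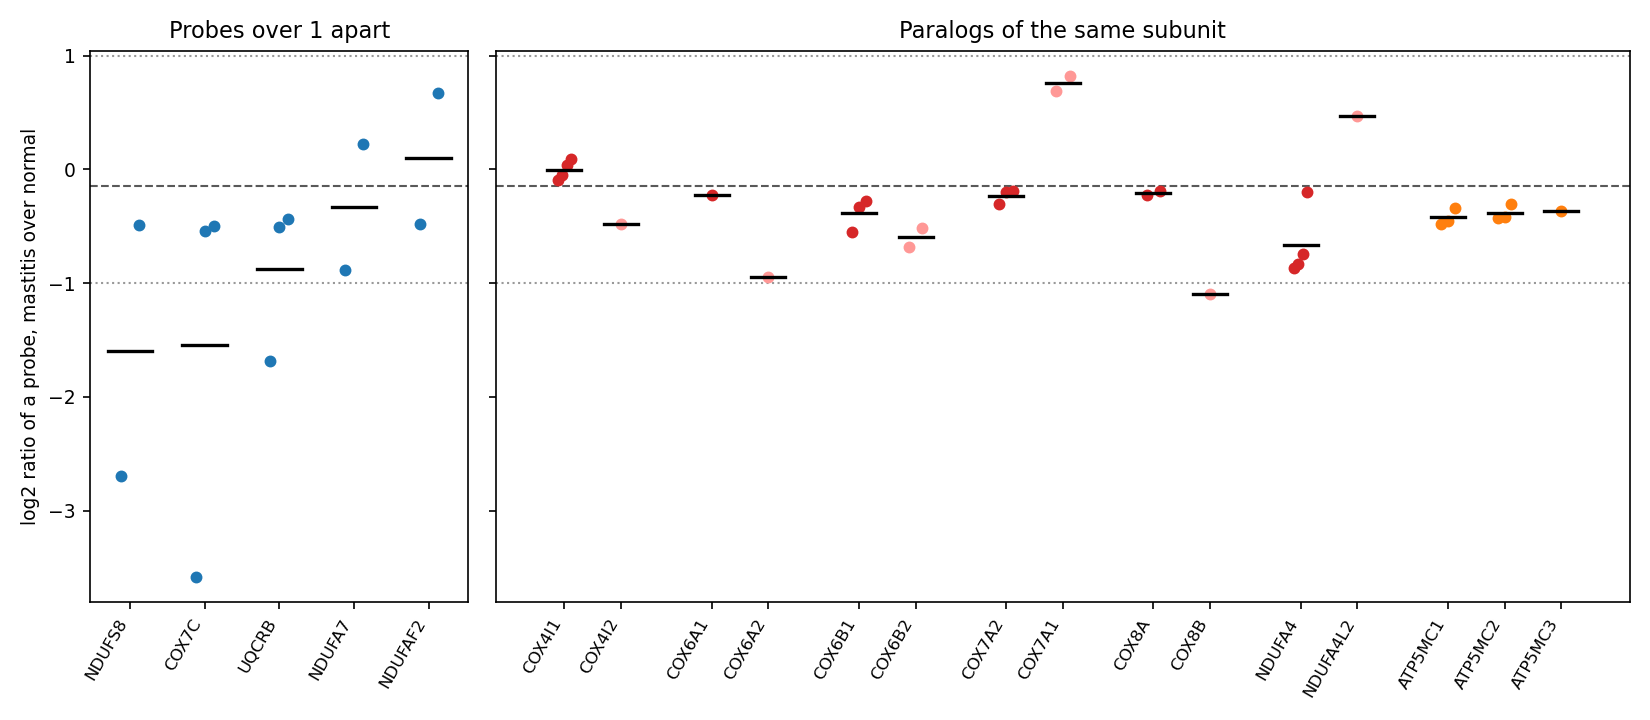
Log2 ratio of single probes (mastitis array over normal array, vertical axis) for the 5 genes whose probes lie over 1 apart (left panel) and for genes that code for forms of the same subunit (right panel). Each point is 1 probe and the black bar is the mean of the gene; dark red marks the first named form of a complex IV subunit, light red the other form, orange the genes of subunit c of ATP synthase, the dashed line the median of all genes and the dotted lines 2-fold. In COX7C and UQCRB a single probe lies far below the others, the 2 probes of NDUFS8 lie far apart, and COX7A1 and NDUFA4L2 lie above their counterparts.

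The factors that assemble complex IV had a median of -0.30 over 7 measured genes. COX20, which attends COX2 while it is inserted and receives copper, was the lowest, with scaled signals of 1.84 for mastitis and 3.34 for normal (log2 ratio -0.86, 1 probe). COX10 and COX15, which act in turn to make heme A, had ratios of -0.30 (1 probe) and 0.17 (1 probe). COX11, which delivers copper, had one of -0.011 (SD 0.064, 2 probes). COX14, COX16 and COX19 lay between -0.33 and 0.020, and COX18 was not well above background on either array. Unlike the factors for complex I with NDUF names, this group had its median below that of all genes, although it was above it in 3 of the 15 settings.

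In complex V, 16 of 17 subunits were below the median of all genes (SD 0.15 over genes). At this scaling 17 of 17 were below 0, as were 61.1% of all genes. In the F1 part, which makes ATP in the matrix, the catalytic pair had the smallest differences. ATP5F1B, the catalytic beta subunit, had scaled signals of 5.05 for mastitis and 5.68 for normal (log2 ratio -0.17, SD 0.11, 5 probes), and ATP5F1A, the alpha subunit, had 14.3 and 17.7 (log2 ratio -0.31, SD 0.050, 6 probes). The central stalk was lower, with 4.24 and 5.94 for the gamma subunit ATP5F1C (log2 ratio -0.49, SD 0.047, 4 probes), 2.12 and 3.40 for the delta subunit ATP5F1D (log2 ratio -0.68, SD 0.024, 2 probes) and 32.6 and 48.1 for the epsilon subunit ATP5F1E (log2 ratio -0.56, SD 0.018, 2 probes). The 5 F1 subunits thus stood in the order beta, alpha, gamma, epsilon, delta, and beta and alpha were apart by 0.14, little more than the SD of 0.11 between the probes for beta.

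The 12 subunits of the membrane part and the outer stalk had a median of -0.33. Subunit c, which forms the rotating ring, is coded by 3 genes whose mature protein is the same, and these genes had nearly the same ratio, with -0.42 for ATP5MC1 (SD 0.075, 3 probes), -0.38 for ATP5MC2 (SD 0.067, 3 probes) and -0.37 for ATP5MC3 (1 probe). The lowest of the 12 were ATP5MF with scaled signals of 2.30 for mastitis and 3.22 for normal (log2 ratio -0.49, SD 0.075, 2 probes) and ATP5MJ with 3.67 and 5.12 (log2 ratio -0.48, SD 0.081, 2 probes). The highest were ATP5PF, coupling factor 6, with 8.51 and 9.87 (log2 ratio -0.21, 1 probe) and ATP5MK with 14.2 and 14.8 (log2 ratio -0.053, 1 probe). ATP5IF1, the inhibitor that stops the enzyme from burning ATP, had 11.02 and 11.7 (log2 ratio -0.092, 1 probe). DMAC2 and DMAC2L, which carry old ATP5 names on the array, had ratios of -0.42 and 0.11 (1 probe each).

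Other lists of mitochondrial genes lay on both sides of the median of all genes. The 5 measured carriers for ATP, phosphate and proton exchange had a median of -0.52, at a distance of -0.38 from all genes. Of these SLC25A5, an ADP/ATP carrier, had scaled signals of 1.75 for mastitis against 3.74 for normal (log2 ratio -1.09, SD 0.026, 3 probes), and UCP2 was the highest at -0.20. The 16 measured genes of pyruvate dehydrogenase and the citric acid cycle had a median of -0.20, from SUCLG2 (-0.54) to IDH3A (0.50), and 0 of them were 2-fold lower or higher, where 9.12% and 2.3% of all genes were. The 77 mitochondrial ribosomal protein genes had a median of -0.16, from MRPS25 (-0.82) to MRPS5 (0.38). The outer membrane and import genes had one of -0.044 over 15 genes, from TOMM22 (-0.49) to VDAC2 (0.22).

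Coenzyme Q synthesis genes (12 measured, median 0.039, COQ8A at -0.88 to COQ10A at 0.75) and genes of mitochondrial DNA upkeep and biogenesis (16 measured, median 0.068) lay above the median of all genes under all 15 settings, of which the constant scalings could not change this. In the latter list the coactivator PPARGC1A had scaled signals of 0.152 for mastitis and 0.0781 for normal (log2 ratio 0.96, 1 probe), with net signals of 32 and 10. Its partner on respiratory chain promoters, the nuclear receptor ESRRA, had 0.252 and 0.531 (log2 ratio -1.08, SD 0.034, 2 probes). It was the 1 gene of the 16 at least 2-fold apart, where 9.12% of all genes were 2-fold lower and 2.3% higher. A further 30 assembly factors without names of the set had a median of -0.21, from SDHAF4 (-1.47) to ATPAF1 (0.34). The 76 cytosolic ribosomal protein genes had a median of -0.41, at a distance of -0.26 from all genes, from RPL7A (-1.08) to RPS24 (0.12). This list, with no mitochondrial role, was between complexes IV and V in its median, although it was above all genes in 2 of the 15 settings, by 0.10 under quantile normalization.

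**Figure D4:**
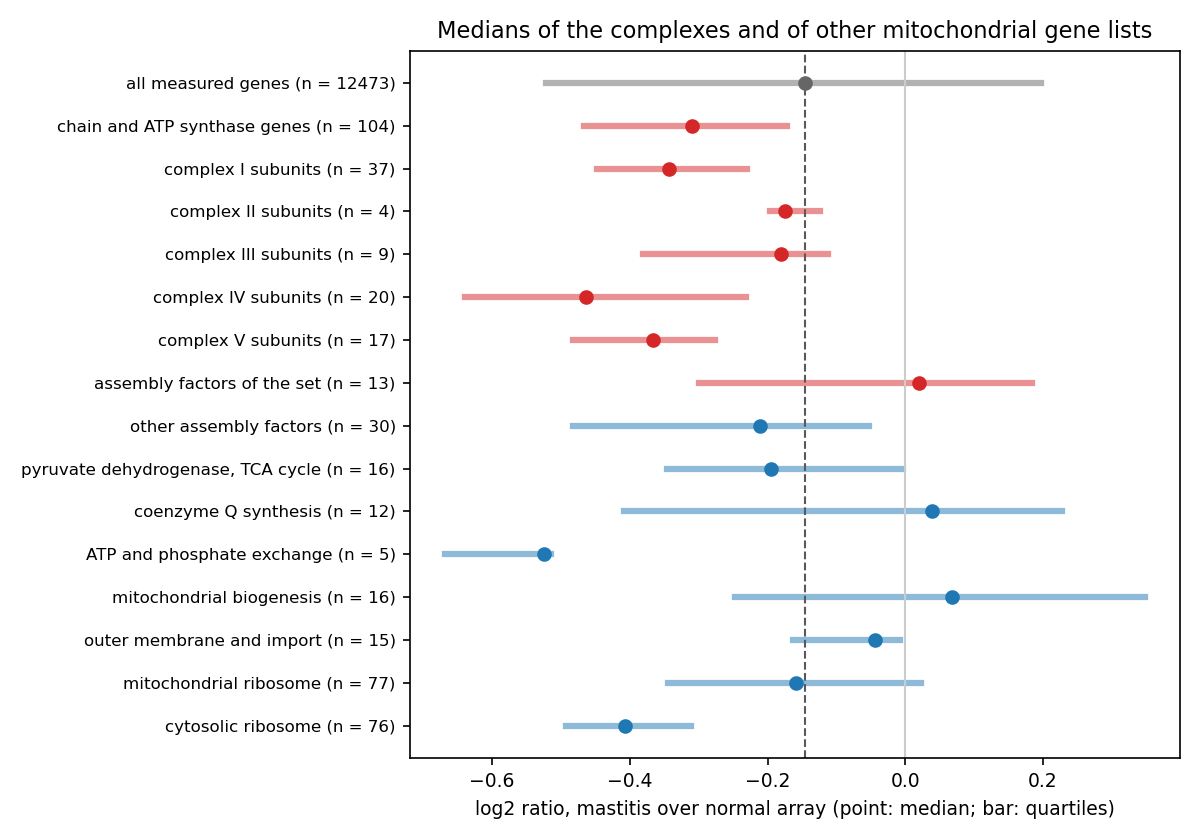
Median log2 ratio (mastitis array over normal array, horizontal axis) of the complexes and assembly factors of the set (red), of other gene lists (blue) and of all measured genes (grey), with the number of measured genes in brackets. Points are medians, bars run between the quartiles over genes, the dashed line marks the all-gene median (-0.15) and the solid line 0. The complexes IV, V and I and the cytosolic ribosome lie to the left of the dashed line at -0.46 to -0.34, and coenzyme Q synthesis and biogenesis lie to its right.

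How far single probes could be trusted differed between genes. Of the 68 genes with more than 1 measured probe, 58 had probes within 0.5 of each other, 10 had probes on both sides of 0, and 5 (NDUFS8, COX7C, UQCRB, NDUFA7 and NDUFAF2) had probes over 1 apart. Without the lowest probe of NDUFS8, COX7C and UQCRB, a choice made after the values were seen, COX8B was the only gene of the set at least 2-fold lower. This is 1 of 104, against 9.10% of all genes. The ratio of COX8B did not reach 2-fold when the arrays were scaled by the median (-0.94) or the spike-in probes (-0.85), quantile normalized (-0.83) or corrected with normexp (-0.64). For NDUFS8 the probe left out was the brighter of 2, and which of them is right was not tested. The measured probes of NDUFS8, COX7C and COX8B were matched by symbol and not by accession. With probes matched by accession alone 0 of 96 genes of the set were 2-fold apart, where 8.61% of all genes were lower and 2.45% higher. Many respiratory chain genes have near-identical copies elsewhere in cattle as in other mammals, and whether a probe also binds RNA of such a copy was not tested.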

How the data were processed

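Total RNA of 1 mastitis and 1 normal mammary sample was measured on 1 array each, on the same slide and in the same scan. For the RNA extraction the labels give a miRNeasy kit and the study's methods Trizol. The sources also differ on the platform, with an Agilent bovine array (design 023647) read at 532 nm by GenePix Pro 6.1 in the file headers, Agilent Feature Extraction in the submitters' processing notes and an Affymetrix chip in the methods. The files have the layout of GenePix.

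The authors deposited for every spot a fluorescence intensity from which the scanner software had subtracted the mean of the negative controls, unscaled, with the percent of saturated pixels and a flag score. They also deposited a table of log2 values with no stated method (column medians 4.34 and 4.29). Its rows follow the scanner signal of the next probe (Spearman 1.00 across probes, against 0.10 in the same row), so it was an alternative only. Its scale is log2 and its direction that of the scanner files; how it was centred is unknown.

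Spots of a probe were averaged. A probe was well above background where its net signal exceeded the mean of 153 negative controls by 2.6 SD (7.10 for mastitis, 8.74 for normal) and the spot was found. No probe of the set was saturated. A gene's log2 ratio is the mean over its probes measured on both arrays, and its scaled signal the geometric mean. Replicate spots of 41 probes had a pooled SD of 0.16.

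Of 43653 probes, 28557 were named by accession through a RefSeq gene table (ARS-UCD2.0, names only), 5115 by symbol, 148 by synonym and 1379 by the file's own name, and 8454 were left without a gene. In the set these were 194 by accession, 41 by symbol and 7 by synonym. Of its 242 probes 26 were not measured on both arrays, of which 19 were above background on neither.

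Genes named are those at least 2-fold apart, the 3 lowest and 3 highest of each complex, core subunits, tissue forms, genes with discordant probes, and the lowest and highest of each other list. The genes and lists were chosen with earlier results of these data known. NDUFA4 and NDUFA4L2 were placed with complex IV. Promoter motifs were not analysed here. Results for 1 gene of the set are left out.

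Alternatives were normexp (limma 3.58.1, R 4.3.3, offset 50), quantile, median, spike-in, other percentile and no scaling, the deposited table as labelled and moved by 1 row, filters, flags, saturation, probe choice, naming and other folds. The comparison with genes of like signal and the removal of 3 discordant probes were added after the data were seen. The 15 settings cited for lists leave out the deposited table as labelled. Those among them that scale each array by a constant cannot change a distance from the median of all genes. Scripts were tested on simulated data. Python 3.11.15 with numpy 2.4.6, pandas 2.3.3 and matplotlib 3.10.9 was used.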

Additional observations from a re-analysis of the deposited data

How the results depend on the processing

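The median of the set stayed below that of all genes under the 17 alternatives run, at -0.25 to -0.0013. Among these, scaling by a constant could not change the distance, and leaving out saturated probes did not, as no probe of the set was saturated. The deposited table as labelled is among the 17 but holds the signals of other probes, so its value does not bear on the set. With the normexp correction the distances became -0.023 for complex I, 0.15 for complex III, -0.11 for complex IV and -0.014 for complex V. Without the filter on dim probes complex V was at -0.020, and with probes named by accession alone complex IV was at -0.15. In the deposited table as labelled, whose rows are displaced, complexes II, III and IV were at -0.45, 0.38 and 0.15, and COX7C had a log2 ratio of 0.24. There 17 of 104 genes of the set were at least 2-fold lower and 8 higher, where 11.5% and 12.3% of all genes were. The number at least 2-fold lower was 0 of 104 with no scaling, where 2.65% of all genes were, and 8 of 107 with no filter, where 20.8% were. It was 0 of 96 with accession names alone (8.61% of all genes) and 1 of 104 without the 3 discordant probes (9.10%). It was 18 of 104 at 1.5-fold (21.6% of all genes) and 1 of 104 at 3-fold (3.30%). It was 2 of 104 with normexp, quantile normalization, scaling by the median or the spike-in probes and the table moved by 1 row. In these settings COX8B was at -0.94 to -0.64, and 3.26% to 6.66% of all genes were 2-fold lower. With net signals of at least 50 the number was 2 of 97 (6.14% of all genes). With the brightest probe or the median over probes it was 2 of 104 (9.27% and 8.96%). The number at least 2-fold higher was 4 of 104 with no scaling, where 20.2% of all genes were, and 1 of 104 at 1.5-fold, where 7.79% were. The changes at 1.5-fold and 3-fold follow from the fold itself. With accession names alone fewer genes of the set were measured. Without the 3 discordant probes as many were measured as before, and NDUFS8 and COX7C stood at -0.49 and -0.52. The cause of the other changes was not tested. All genes at least 2-fold lower and higher numbered 732 and 573 on spike-in scaling, 761 and 451 after quantile normalization, 407 and 97 with normexp and 3363 and 452 with no filter. No paired analysis was possible because each condition has 1 array, and for the same reason no replicate could be left out. Genes near background, such as COX8B and COX6A2, are limited by their signal.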

Other observations

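Mitochondrial DNA codes for further subunits whose names do not fall under the naming rule above. They were listed after values had been seen, and 9 were measured. Their median log2 ratio was -0.54, at a distance of -0.40 from all genes, and 8 of 9 lay below the median of all genes. CYTB, the cytochrome b of complex III, was the lowest, with scaled signals of 49.5 for mastitis and 91.3 for normal (log2 ratio -0.88, SD 0.048, 5 probes). The complex I subunits ND1, ND2, ND4, ND4L, ND5 and ND6 lay between -0.76 and -0.32. Of the ATP synthase subunits, ATP6 had 135 and 193 (log2 ratio -0.52, SD 0.086, 3 probes) and ATP8 had 19.9 and 16.1 (log2 ratio 0.31, 1 probe), and ATP8 was the only one of the 9 above 0. COX2 and COX3, at -0.76 and -0.55, lay within the range of these genes, and 0 of the 9 were at least 2-fold apart, where 9.12% of all genes were 2-fold lower. The nuclear-coded subunits of complexes I to V had a median of -0.33 over 85 genes.

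The SLC25A family carries metabolites over the inner mitochondrial membrane. Of 44 members on the array 38 were measured, with a median of -0.21, and 4 were at least 2-fold lower and 0 higher, where 9.12% and 2.3% of all genes were. The lowest was SLC25A21, an oxodicarboxylate carrier (log2 ratio -2.56), and the highest SLC25A36, a pyrimidine nucleotide carrier (log2 ratio 0.64).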
